A study of Mus musculus with 9 samples.

Results

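Genes of the MHC class I presentation pathway were followed in follicular B cells of the mouse spleen carrying 3 forms of the immunoglobulin heavy chain locus. They were chosen by name: H2-K1, H2-D1, H2-Q10 and H2-T23 among the class I heavy chains, the shared light chain B2m, the peptide transporter genes Tap1 and Tap2, the loading factor Tapbp and the transactivator Nlrc5. Earlier results of these data were known when the genes were chosen. A gene was represented by its brightest probe set among those annotated with that symbol alone. Of the 9 genes listed, 8 had such a probe set, and all 8 were among the 12170 genes tested, out of 22180 genes with such a probe set. H2-D1 shared its probe set's annotation with another gene and was not analysed here.

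The compared mice were homozygous for the allele Igh ε/ε, named after the constant region of IgE, homozygous for the allele Igh γ1/γ1, named after that of IgG1, or carried the wild-type locus Ighwt. Every genotype label adds VJk5, an element it leaves unexplained. All mice were 6 to 12 weeks old and housed under specific-pathogen-free conditions. Cells were sorted from spleen, total RNA was amplified, and each genotype was measured on 3 arrays. The labels do not say how the alleles were made or whether each array stands for 1 animal, so the p-values rest on the spread among these arrays, part of which may be technical.

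Class I molecules are read by cytotoxic T cells and natural killer cells as a report of the proteins a cell is making. Proteasomes cut those proteins into peptides, the TAP transporter carries the peptides into the endoplasmic reticulum, and tapasin, the product of Tapbp, holds an empty class I molecule beside the transporter until a well-fitting peptide is bound. The filled heavy chain travels to the surface with β2-microglobulin. Transcription of the classical genes is driven by NLRC5 at a compact set of promoter boxes, and by interferons and NF-κB. Naive B cells carry much surface class I, beside the class II molecules with which they address helper T cells.

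The 10 measured markers of B cells lay above the median of their array on all 9 arrays. Macrophage markers were high on ε/ε replicate 1, where 17 of 18 lay above the array median. Their summed signal on a linear scale was 315 to 2450 over the ε/ε arrays, with 2450 on replicate 1, 467 on replicate 2 and 315 on replicate 3, against 255 to 276 in γ1/γ1 and 243 to 255 in wild-type cells. Dendritic cell markers summed to 156 to 167, 135 to 179 and 120 to 134 in the same order, those of T and NK cells to 143 to 170, 121 to 139 and 124 to 131, and those of plasma cells to 187 to 258, 135 to 161 and 145 to 175. Granulocyte markers summed to 63.0 to 68.2, 63.5 to 72.9 and 64.5 to 76.6, and the 1 measured red cell marker to at most 16.5. Xist, which is expressed from the silenced X chromosome of females, was low on ε/ε replicate 1 and γ1/γ1 replicate 1. In bulk samples, a different share of cells and a different amount of RNA per cell cannot be told apart. Leaving out ε/ε replicate 1 removes the array with most macrophage signal and not all of it, and the fit of the 7 arrays of high Xist leaves out both arrays of low Xist.

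The promoters of the 3 genes that rose in ε/ε cells differ in their exact matches to the motifs searched, and their sequences are given for that reason. Each line is the 250 bases before the transcription start, 5′ to 3′ on the gene's strand, from RefSeq on GRCm38.p6. Capitals mark every match, on either strand, to the Y box core CCAAT, the CRE-like cores TGACGC and TGACGTCA, the interferon-stimulated response element core, read as GAAA, any 2 bases and GAAA, and the NF-κB site, read as the 10 letters first capitalised in the H2-K1 line.
H2-K1 promoter, chr17:34000334-34000583, minus strand: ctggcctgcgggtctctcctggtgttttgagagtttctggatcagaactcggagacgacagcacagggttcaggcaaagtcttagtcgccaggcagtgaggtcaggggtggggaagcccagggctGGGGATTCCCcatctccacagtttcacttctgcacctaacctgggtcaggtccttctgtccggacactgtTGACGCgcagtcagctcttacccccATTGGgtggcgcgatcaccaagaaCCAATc
H2-Q10 promoter, chr17:35469839-35470088, plus strand: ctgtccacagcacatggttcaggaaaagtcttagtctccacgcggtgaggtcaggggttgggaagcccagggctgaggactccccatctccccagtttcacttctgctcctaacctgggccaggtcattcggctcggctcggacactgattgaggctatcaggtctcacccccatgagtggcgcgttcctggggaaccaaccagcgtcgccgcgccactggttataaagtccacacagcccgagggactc
Tapbp promoter, chr17:33919228-33919477, plus strand: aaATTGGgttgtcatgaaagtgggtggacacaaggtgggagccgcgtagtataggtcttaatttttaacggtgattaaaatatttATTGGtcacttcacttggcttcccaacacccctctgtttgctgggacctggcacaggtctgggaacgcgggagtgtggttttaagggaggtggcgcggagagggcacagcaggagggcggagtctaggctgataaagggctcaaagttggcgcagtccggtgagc

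The H2-K1 window, the one further downstream of the 2 starts listed, held the NF-κB site from base -125, TGACGC from base -55 and a CCAAT box on each strand, 4 matches in all. H2-Q10 held 0 of the 5 motifs, although 84.7% of the 196 bases that aligned with the H2-K1 window were equal. The stretch of H2-Q10 aligned with the NF-κB site, GAGGACTCCC, differed from it by G2A and T6C, and that aligned with the box nearest the start, CCAAC, by T5C, with positions counted from the 5′ base of each H2-K1 motif. The remaining H2-K1 matches aligned with gaps, shown as dashes: TGACGC with TGA--G, and the CCAAT box of the opposite strand, ATTGG, with A-TGA. The CCAAT box nearest the start began at base -6 in H2-K1, while its aligned stretch began at -54 in H2-Q10 and -53 in H2-D1. Distances from the listed starts therefore do not line up between these genes. Tapbp held only CCAAT, on the opposite strand, at bases -248 and -165. No match says only that these letters are not in this window.

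Promoters of 7 of the 9 listed genes were in the RefSeq table used, those of Tap2 and Nlrc5 being the exceptions. CCAAT was found in 6 of the 7, and in 33.8% of all 32851 windows of the same length. The NF-κB site was found in 2 of the 7, H2-K1 and H2-D1, and in 0.0852% of all windows, and TGACGC in the same 2 genes and in 6.12% of all. H2-D1 kept every H2-K1 match without a difference, with 87.2% of 203 aligned bases equal, so the matches of these 2 genes are not separate finds. The NF-κB letters searched are the form that stands in H2-K1, so their share of all windows is given as a description. The interferon-stimulated response element core was found in 2 of the 7, B2m and H2-T23, and in 2.98% of all, while TGACGTCA was found in 0 of the 7 and in 1.55% of all. The search took only exact letters, and looser forms of the interferon element were not sought. The stretch agtttcacttctg, which the pattern used does not match, stands in the H2-K1, H2-D1 and H2-Q10 windows alike. These matches are a description of the reference sequence and not of binding in these cells.

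The heavy chain genes H2-K1 and H2-Q10 and the tapasin gene Tapbp rose in ε/ε cells over wild-type, the comparison that asks what accompanies the ε allele. The other 5 genes did not pass the test. Every value below is a log2 signal of 1 probe set, on which a difference of 1 is a doubling, and the threshold was an adjusted p under 0.05 in limma over all 12170 genes. In this comparison 3 of 8 genes were higher and 0 lower, beside 6.34% of all genes passing, 2.33% higher and 4.02% lower. The 8 genes were chosen with earlier results of these data known. The shares of all genes set beside theirs, here and below, are therefore a description and not a test. Under quantile normalization 3.37% of all genes were higher, and the share of higher genes among all that passed was 57.8% in place of 36.7%, while the same 3 class I genes passed. At an unadjusted p under 0.05 there were 4 of the 8 genes higher and 0 lower, against 10.4% and 14.4% of all genes.

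H2-K1 encodes a classical heavy chain, the main kind of class I molecule shown to cytotoxic T cells. It read 7.67, 7.80 and 7.76 on the ε/ε arrays, 7.30, 7.43 and 7.43 on the γ1/γ1 arrays and 7.21, 7.04 and 7.13 on the wild-type arrays. The 3 genotypes lay in separate ranges, ε/ε highest and wild-type lowest. The rise in ε/ε over wild-type was 0.62 (SE 0.12, 95% interval 0.34 to 0.89, 1.53-fold, limma adjusted p = 0.0200). ε/ε replicate 1, with its high macrophage markers, was the lowest of the ε/ε arrays for H2-K1, and without it the rise was 0.65 (adjusted p = 0.0334). Leaving out wild-type replicate 2 (0.57, adjusted p = 0.0822) or wild-type replicate 3 (0.62, adjusted p = 0.0713) ended the call. Adjusted p ranged from 0.00997 to 0.0822 over the alternatives.

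Tapbp, the tapasin gene, read 6.70, 6.28 and 6.50 for ε/ε, 5.26, 5.73 and 5.73 for γ1/γ1 and 5.61, 5.57 and 4.90 in wild-type cells. Every ε/ε array lay above every other array, while γ1/γ1 and wild-type overlapped. The rise over wild-type was 1.13 (SE 0.22, 95% interval 0.64 to 1.63, 2.19-fold, adjusted p = 0.0183). ε/ε replicate 1, the array of high macrophage markers, was the highest for Tapbp, and without it the difference was 1.03 (adjusted p = 0.0542). The call was also lost without wild-type replicate 2 (1.24, adjusted p = 0.0533) or wild-type replicate 3 (0.90, adjusted p = 0.0622). Over the alternatives the adjusted p of Tapbp lay between 0.0117 and 0.0622.

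H2-Q10 encodes a class I heavy chain that is secreted instead of being held in the membrane, and the liver is its best-known source. It read 6.52, 6.03 and 5.72 for ε/ε, 5.84, 4.69 and 4.24 for γ1/γ1 and 4.63, 2.61 and 3.25 in wild-type cells. The ε/ε and wild-type ranges were apart, the γ1/γ1 range overlapped the ε/ε range and the wild-type range, and replicates of 1 genotype differed more than for any other of the 8 genes. The highest reading of the ε/ε group and that of the γ1/γ1 group fell on the arrays of low Xist. The first of these is also the array of high macrophage markers, and the part of either in the result was not tested beyond the fits given here. The rise over wild-type was 2.59 (SE 0.51, 95% interval 1.44 to 3.74, adjusted p = 0.0191). No fold is given, since 2 of the wild-type readings lay below the array medians of 3.53 to 3.69. The rise was 2.25 (adjusted p = 0.0275) with a covariate for low Xist and 2.38 (adjusted p = 0.0461) on the 7 arrays of high Xist. Without ε/ε replicate 1 it was 2.38 and no longer passed (adjusted p = 0.0600), nor did it without wild-type replicate 2 (2.15, adjusted p = 0.0811) or wild-type replicate 3 (2.47, adjusted p = 0.0772). The adjusted p of H2-Q10 lay between 0.00514 and 0.0811 over the alternatives.

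**Figure D1:**
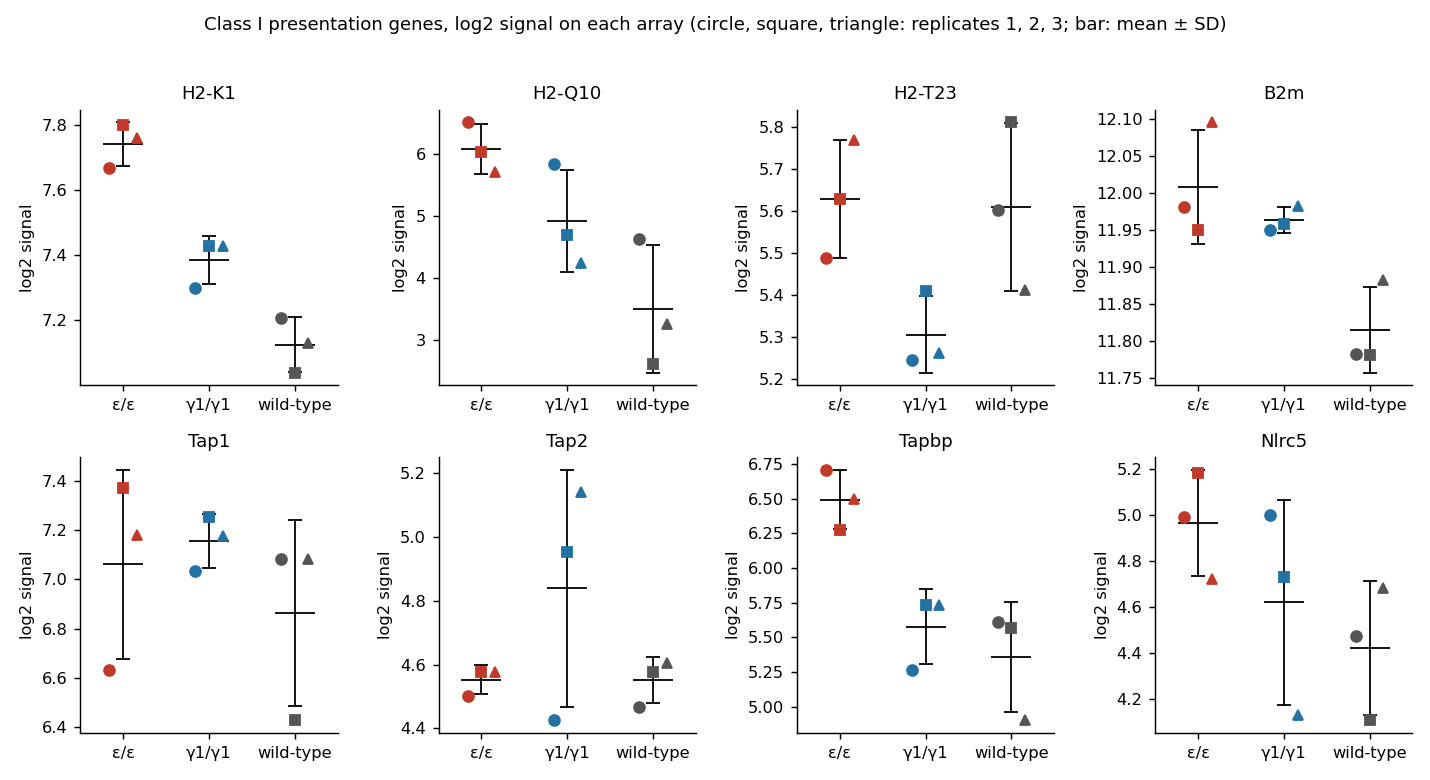
Log2 signal of the 8 class I presentation genes on each array, grouped by genotype on the x axis, with the mean and SD (n = 3) as black bars; each panel has its own y scale, which does not start at 0. The ε/ε arrays lie above all wild-type arrays for H2-K1, H2-Q10, B2m, Tapbp and Nlrc5, and overlap them for H2-T23, Tap1 and Tap2.

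Both H2-Q10 and Tapbp had a second single-symbol probe set, and for H2-Q10 it gave another result. H2-Q10 probe set 17337152, described above, read 6.09 ± 0.40 (SD, n = 3) in ε/ε cells, against 4.92 ± 0.83 for γ1/γ1 and 3.50 ± 1.03 for wild-type. The other, 17337142, read 4.70 ± 0.23, 4.56 ± 0.33 and 4.64 ± 0.06, with a difference of 0.06 between ε/ε and wild-type (limma adjusted p = 0.898 over all 41345 probe sets, of which 2.86% passed). On that scale the brighter H2-Q10 probe set itself missed the threshold (adjusted p = 0.0540), and the mean of both, in the fit of genes, rose by 1.32 (adjusted p = 0.0356). The rise of H2-Q10 therefore belongs to 1 of its 2 probe sets. Class I heavy chain genes have near-identical copies, so which of them a probe set measured is uncertain.

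For Tapbp, probe set 17336228 read 6.49 ± 0.21, 5.58 ± 0.27 and 5.36 ± 0.40 in ε/ε, γ1/γ1 and wild-type cells, and probe set 17343675 read 4.69 ± 0.68, 4.25 ± 0.33 and 3.77 ± 0.27. The differences between ε/ε and wild-type were 1.13 (adjusted p = 0.0442 over all probe sets) and 0.92 (adjusted p = 0.200). The means of both probe sets thus stood in the same order over the 3 genotypes. For probe set 17343675, however, the ε/ε and wild-type readings overlapped, at 3.96 on ε/ε replicate 1 and 4.02 on wild-type replicate 2. Its reading on wild-type replicate 3, 3.49, lay below the array medians of 3.53 to 3.69. The lowest ε/ε reading of probe set 17343675 was on replicate 1, the array on which probe set 17336228 was highest.

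**Figure D2:**
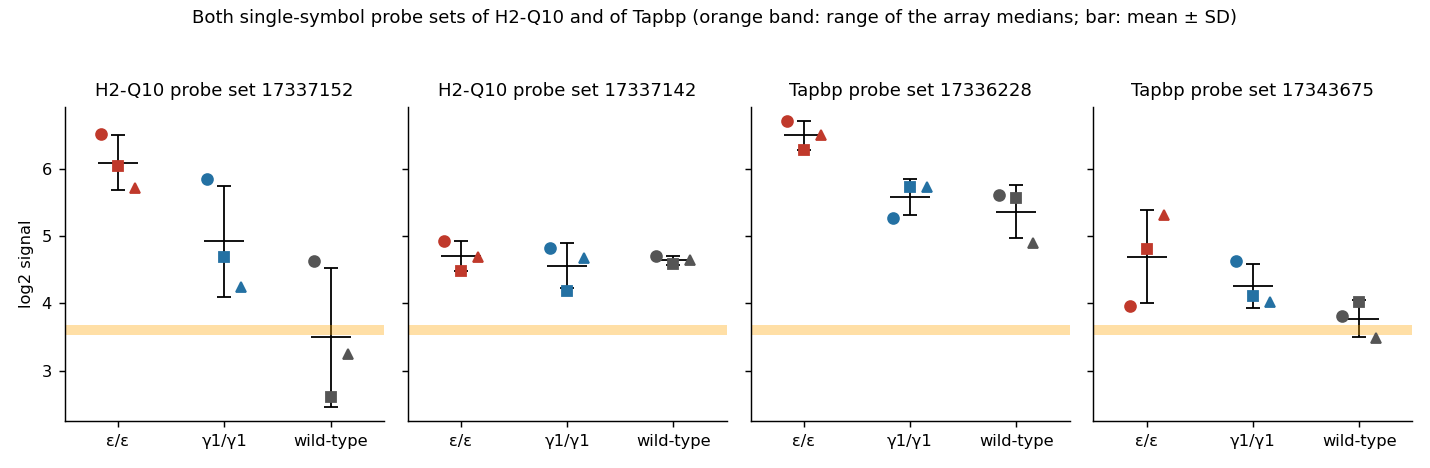
Log2 signal of both probe sets of H2-Q10 and of Tapbp on each array, by genotype, with the mean and SD (n = 3) as black bars and the array medians, 3.53 to 3.69, as an orange band. Of the H2-Q10 probe sets, 17337152 averages 6.09 in ε/ε and 3.50 in wild-type cells, while the means of 17337142 lie between 4.56 and 4.70.

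B2m encodes the light chain that every class I molecule needs to reach the surface. It read 11.98, 11.95 and 12.10 for ε/ε, 11.95, 11.96 and 11.98 for γ1/γ1 and 11.78, 11.78 and 11.88 in wild-type cells. All 6 arrays of ε/ε and γ1/γ1 cells lay above the 3 wild-type arrays, by a small margin. The difference of ε/ε from wild-type was 0.19 (SE 0.12, 95% interval -0.07 to 0.46, adjusted p = 0.350).

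Nlrc5, the transactivator of the class I genes, read 4.99, 5.18 and 4.72 in ε/ε, 5.003, 4.73 and 4.13 in γ1/γ1 and 4.48, 4.11 and 4.68 in wild-type cells. The ε/ε arrays lay above the wild-type arrays, the nearest readings being 4.72 and 4.68, and the γ1/γ1 arrays spanned nearly the whole range. The difference from wild-type was 0.54 (SE 0.24, 95% interval 0.01 to 1.08, adjusted p = 0.195) and did not pass over all genes.

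Tap1 and Tap2 encode the 2 subunits of the peptide transporter. Tap1 read 6.63, 7.37 and 7.18 for ε/ε, 7.04, 7.25 and 7.18 for γ1/γ1 and 7.08, 6.43 and 7.08 in wild-type cells. Tap2 read 4.50, 4.58 and 4.58, then 4.43, 4.95 and 5.14, then 4.47, 4.58 and 4.60 in the same genotype order. The genotypes overlapped for both genes. The ε/ε difference from wild-type was 0.20 (SE 0.23, 95% interval -0.32 to 0.71, adjusted p = 0.636) for Tap1 and 0.0018 (SE 0.18, 95% interval -0.40 to 0.40, adjusted p = 0.997) for Tap2. The sign of each turned when single arrays were left out, as for Tap1 without wild-type replicate 2 (-0.021).

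H2-T23 encodes Qa-1, a non-classical heavy chain that shows leader peptides of other class I molecules to natural killer cells. It read 5.49, 5.63 and 5.77 in ε/ε, 5.25, 5.41 and 5.26 in γ1/γ1 and 5.60, 5.81 and 5.41 in wild-type cells. The ε/ε and wild-type ranges coincided, with a difference of 0.02 (SE 0.15, 95% interval -0.31 to 0.35, adjusted p = 0.953). This sign turned too, to -0.08 without wild-type replicate 3.

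Over the 8 genes, the ε/ε difference from wild-type was above 0 for 8, against 48.3% of all genes, and its median was 0.37, against -0.01 over all genes. Most marker lists also had medians above 0 here, with 0 markers passing in each. The median was 1.20 over 13 macrophage markers tested, 0.39 over 3 plasma cell markers and 0.32 over 4 dendritic cell markers. It was 0.25 over 10 B cell markers and 0.09 over 3 T and NK cell markers. At an unadjusted p under 0.05 in limma, 5, 1, 1, 3 and 1 were higher in that order, and 1 B cell marker was lower. The 1 granulocyte marker tested had a difference of -0.19 and the 1 red cell marker 0.04. The part of these lists in the median of the 8 genes was not tested. For 5 of the 8 the ε/ε arrays all lay above the wild-type arrays, against 11.8% of all genes, and for 0 of the 8 below, against 16.6%. The lowest reading of the 9 arrays fell on wild-type replicate 2 for 5 of the 8 genes. The share of all genes lowest on that array was not counted, so this is a description only. That array also had the lowest summed signal of the B cell markers, 4750 in a wild-type range of 4750 to 6290, against 6880 to 7380 in ε/ε and 5880 to 6820 in γ1/γ1. Its part in the result was not tested beyond leaving it out, after which 0 of the 8 genes passed and 186 of all genes did. Without wild-type replicate 3, likewise, 0 of the 8 and 210 of all genes passed. Without ε/ε replicate 1, 1 of the 8, H2-K1, and 525 of all genes passed.

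**Figure D3:**
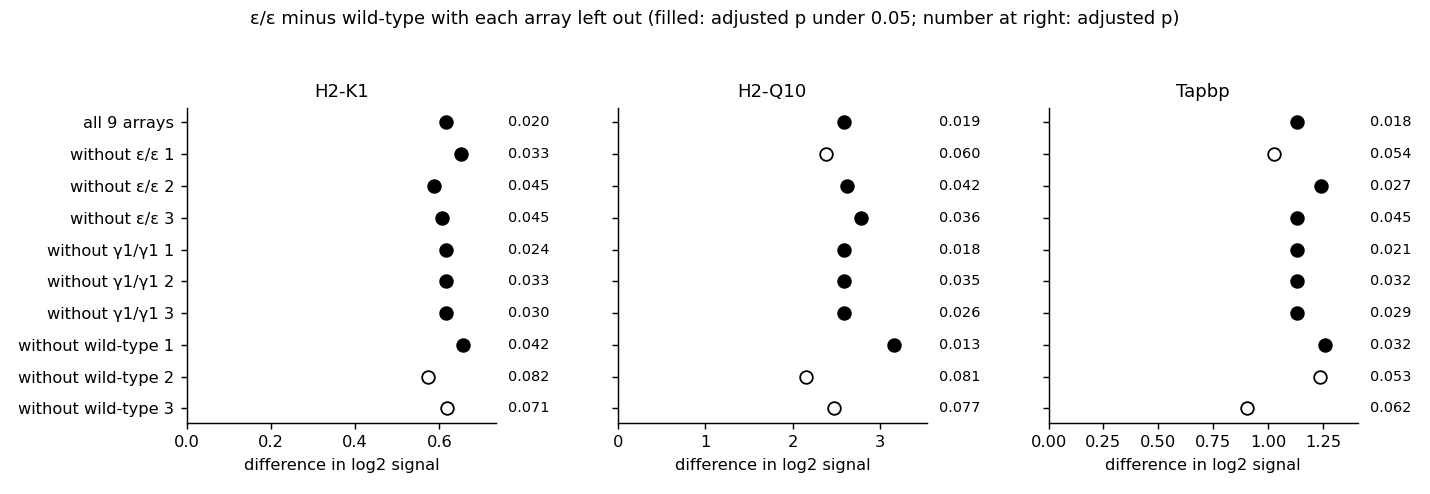
Difference in log2 signal between ε/ε and wild-type cells (x axis, from 0) for H2-K1, H2-Q10 and Tapbp in the fit of all 9 arrays and with each array left out (y axis); filled points pass at an adjusted p under 0.05, and the adjusted p stands at the right. The differences stay between 0.57 and 0.66, 2.15 and 3.15, and 0.90 and 1.26, and every gene misses the threshold without wild-type replicate 2 or 3.

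In γ1/γ1 cells against wild-type, 0 of the 8 genes passed in limma, where 0.0411% of all genes did (0.0247% higher, 0.0164% lower), and 1, H2-Q10, had an unadjusted p under 0.05, where 3.03% of all genes were higher and 3.79% lower at that p. This comparison asks what accompanies the γ1 allele. H2-K1 had a difference of 0.26 (SE 0.12, 95% interval -0.02 to 0.54, adjusted p = 0.731) and H2-Q10 one of 1.42 (SE 0.51, 95% interval 0.28 to 2.57, adjusted p = 0.664). H2-T23 had the only difference below 0, at -0.30 (SE 0.15, 95% interval -0.63 to 0.03, adjusted p = 0.735), and its 3 γ1/γ1 readings lay below all wild-type readings, by less than the rounding at the nearest pair.

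The remaining differences of γ1/γ1 from wild-type were 0.15 for B2m, 0.29 for Tap1, 0.29 for Tap2, 0.22 for Tapbp and 0.20 for Nlrc5, with adjusted p between 0.791 and 0.899. The upper ends of these intervals lay between 0.42 for B2m and 0.80 for Tap1. The arrays did not overlap for 3 of the 8 genes: H2-K1 and B2m lay above wild-type, against 4.68% of all genes, and H2-T23 below, against 7.71%. The difference was above 0 for 7 of the 8, against 46.6% of all genes, and the median of the 8 was 0.24, against -0.02 over all genes.

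Compared with each other, to ask where cells of the ε and γ1 alleles differ, ε/ε and γ1/γ1 cells had 0 of the 8 genes passing in limma, where 2.66% of all genes did (1.02% higher, 1.64% lower in ε/ε), and 3 genes with an unadjusted p under 0.05, all higher in ε/ε, against 9.07% of all genes higher and 10.8% lower. Tapbp was nearest the threshold, with a difference of 0.92 (SE 0.22, 95% interval 0.42 to 1.41, 1.89-fold, adjusted p = 0.0576). Among all genes that passed, 38.3% were higher in ε/ε, or 53.4% under quantile normalization and 54.5% with arrays centred on their medians. Tapbp passed under quantile normalization, at 0.97 (adjusted p = 0.0441), and with a filter at percentile 75, at 0.92 (adjusted p = 0.0415), and its adjusted p reached 0.266 among the alternatives. H2-K1 differed by 0.36 (SE 0.12, 95% interval 0.08 to 0.63, adjusted p = 0.150) and H2-Q10 by 1.17 (SE 0.51, 95% interval 0.02 to 2.31, adjusted p = 0.243).

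H2-T23 was the third gene, after H2-K1 and Tapbp, whose ε/ε arrays all lay above the γ1/γ1 arrays, against 9.86% of all genes, and 0 of the 8 lay below, against 11.3%. The difference was above 0 for 6 of the 8, against 50% of all genes. The difference of H2-T23 was 0.32 (95% interval -0.01 to 0.65, adjusted p = 0.262). B2m, Tap1, Tap2 and Nlrc5 differed by 0.05, -0.09, -0.29 and 0.34, with adjusted p of 0.866, 0.858, 0.399 and 0.453. The comparisons with wild-type share the wild-type arrays, and each comparison with ε/ε shares the ε/ε arrays, so the differences above stand side by side and are not independent.

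**Figure D4:**
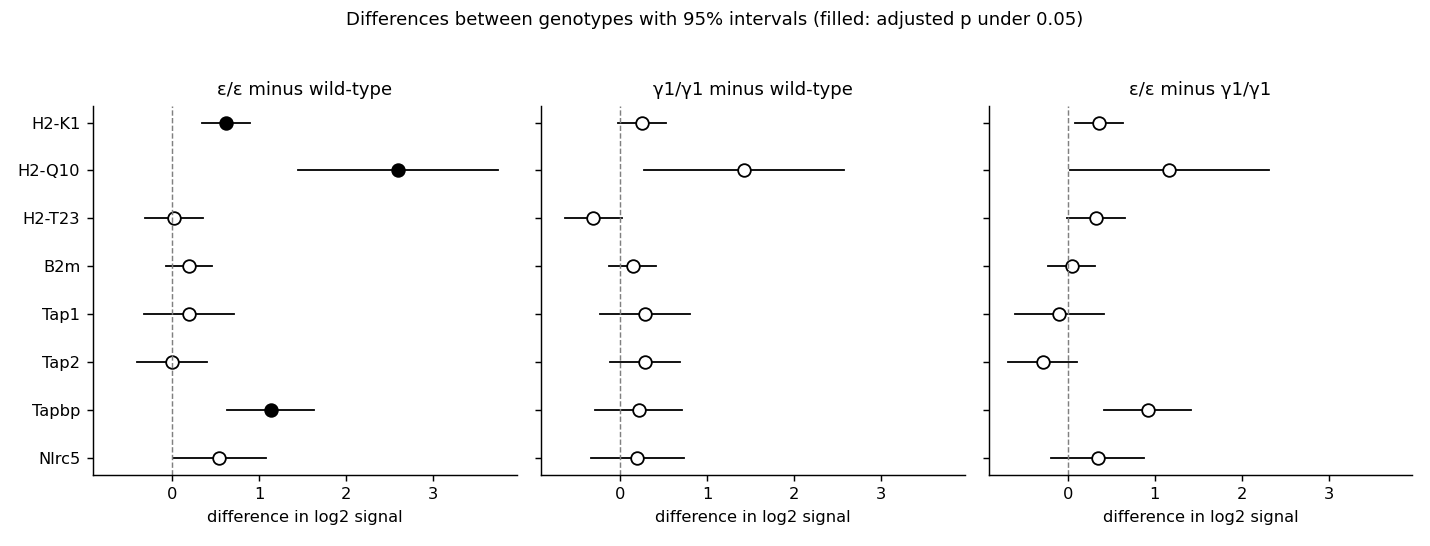
Difference in log2 signal for the 8 genes in each of the 3 comparisons, with 95% intervals from limma; filled points pass at an adjusted p under 0.05 over all genes. H2-K1, H2-Q10 and Tapbp pass between ε/ε and wild-type (0.62, 2.59 and 1.13), and none of the 8 passes in the other comparisons.

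The moderated F test, which asks for any difference among the 3 genotypes, passed for H2-K1 (adjusted p = 0.0475), H2-Q10 (0.0457) and Tapbp (0.0360), 3 of 8 where 4.11% of all genes passed. These calls rested on the full set of arrays. H2-K1 missed the threshold with any 1 array left out (adjusted p 0.0617 to 0.127), H2-Q10 without any but γ1/γ1 replicate 1 or wild-type replicate 1 (up to 0.140), and Tapbp without any but γ1/γ1 replicate 1 (up to 0.113). For B2m, Tap1, Tap2, H2-T23 and Nlrc5 the adjusted p lay between 0.318 and 0.670.

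Among themselves the 8 genes did not move as a block. Over the 9 arrays, Pearson's r of the 28 pairs ran from -0.47 for Tap2 with Nlrc5 to 0.85 for H2-K1 with Tapbp, with a median of 0.33. H2-K1 followed B2m at 0.80 and H2-Q10 at 0.82, while Tap1 and Tapbp had an r of -0.03. The points share the 3 genotypes, so any gene that differs between genotypes takes part of its r from that difference. By the same measure the genes most like H2-K1 were Dtx1 (0.98), a ubiquitin ligase of the Notch pathway, Atf5 (0.98), a stress-responsive transcription factor, and Chka (0.97), a choline kinase. Those most like H2-Q10 were Ralgds (0.96), Cnnm4 (0.96) and Ccar2 (0.95), and those most like Tapbp were Slc35e1, Igh-VS107 and Npy5r (0.97 each). Among all genes tested, 0.608% had an r above 0.9 with H2-K1, 0.189% with H2-Q10 and 0.583% with Tapbp. The genes named are the highest of these and are given as a description.

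The other class I heavy chain genes as listed did not pass in any comparison by limma, 0 of 11 tested in each. The list does not hold H2-Q5, a class I gene of the Q region that did rise in ε/ε cells and is described with the MHC region. At an unadjusted p under 0.05 there was 1 higher and 0 lower in ε/ε, 2 higher and 2 lower in γ1/γ1 against wild-type, and 0 between ε/ε and γ1/γ1. Of all genes, 10.4% were higher and 14.4% lower at that p in the first comparison, 3.03% and 3.79% in the second, and 9.07% and 10.8% in the third. The shares of all genes that passed were 6.34%, 0.0411% and 2.66% in the same order. These shares apply to the lists below as well. The median of the 11 heavy chain genes in the first comparison was -0.14. H2-K2, a neighbour of H2-K1, read 6.95, 6.71 and 6.49 in ε/ε, 6.47, 6.56 and 6.08 in γ1/γ1 and 6.17, 5.004 and 6.08 in wild-type cells. H2-K2 was not among the genes kept in the fit of protein-coding genes alone. Its difference was 0.97 (SE 0.29, adjusted p = 0.0747), and it passed only under quantile normalization (1.08, adjusted p = 0.0492) and at a threshold of 0.1. H2-Q4, of the Q region, had a difference of 0.43 (adjusted p = 0.278) in ε/ε and passed with the mean of its probe sets (0.74, adjusted p = 0.0329). The mean of its brightest probe set was highest in γ1/γ1 cells, at 5.45, against 5.10 in ε/ε and 4.67 in wild-type cells.

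Genes that cut, trim and load peptides were mixed. Of 18 tested, 1 rose and 2 fell between ε/ε and wild-type, 16.7% against 6.34% of all genes, with a median of 0.11. Psme2, a subunit of the PA28 activator that opens the proteasome, read 5.32, 5.79 and 5.95 in ε/ε and 5.11, 4.41 and 4.68 in wild-type cells, a rise of 0.96 (SE 0.21, adjusted p = 0.0284). Tpp2, a cytosolic peptidase, fell by 0.61 (SE 0.13, adjusted p = 0.0221), from 7.54 to 6.93, and Sppl2a, an intramembrane protease that in B cells clears the stub of the class II invariant chain, fell by 0.67 (SE 0.15, adjusted p = 0.0314), from 8.22 to 7.56. Each of these calls depended on the setting. That of Psme2 was lost by omitting ε/ε replicate 2 or 3 or wild-type replicate 2 or 3 (adjusted p to 0.114), that of Tpp2 by omitting ε/ε replicate 2 or 3 or any wild-type array (to 0.0904), and that of Sppl2a by omitting ε/ε replicate 1 or 3 or any wild-type array (to 0.114). In the fit of the 6 arrays compared none of the 3 passed (Psme2 0.0776, Tpp2 0.0511, Sppl2a 0.0633). The replicate block ended the calls of Psme2 (0.0544) and Sppl2a (0.0586), and quantile normalization those of Tpp2 (-0.43, 0.0787) and Sppl2a (-0.51, 0.101). Sppl2a also missed the threshold with arrays centred on their medians (0.0538) and on the 7 arrays of high Xist (-0.64, 0.0838).

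The immunoproteasome subunits, named here for their role, had differences of -0.09 for Psmb8, 0.03 for Psmb9, which lies head to head with Tap1, and 0.30 for Psmb10, with adjusted p of 0.783, 0.911 and 0.269. Psmb8 turned to 0.055 under quantile normalization. Between ε/ε and γ1/γ1, Sppl2a was lower by 0.71 (SE 0.15, adjusted p = 0.0410), the 1 gene of 18 that passed. This call was lost without any array but ε/ε replicate 2 (adjusted p up to 0.109). It was also lost under quantile normalization, median centring, array weights and the replicate block, in the 6 arrays compared and on the 7 arrays of high Xist (0.0661 to 0.164). Against wild-type, 0 of 18 passed in γ1/γ1 cells by limma, with 0 higher and 2 lower at an unadjusted p under 0.05.

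Of 18 transcription factors and cofactors of class I genes, 0 rose and 1 fell in ε/ε cells, 5.56% against 6.34% of all genes. The 1 gene was Irf2, which binds interferon response elements, from 7.94 to 7.43, a fall of 0.51 (SE 0.13, adjusted p = 0.0454) that was lost without any array but ε/ε replicate 2 (up to 0.119) and under quantile normalization (-0.33, adjusted p = 0.180). It was also lost with median centring, no filter, the 6 arrays compared, the replicate block, the covariate for low Xist and the 7 arrays of high Xist (0.0506 to 0.0965). In γ1/γ1 cells 0 of 18 passed by limma against wild-type, with 0 higher and 1 lower at an unadjusted p under 0.05, and 0 of 18 between ε/ε and γ1/γ1, with 2 higher and 1 lower.

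Of 26 interferon-stimulated genes tested, 1 rose and 1 fell between ε/ε and wild-type, 7.69% against 6.34% of all genes. Gbp7, an interferon-induced GTPase, read 4.84 in ε/ε and 3.86 in wild-type cells, a rise of 0.98 (SE 0.18, adjusted p = 0.0147), and did not pass once wild-type replicate 3 was left out (0.93, adjusted p = 0.0655). Samd9l, a restriction factor, fell by 0.60 (SE 0.15, adjusted p = 0.0394), a call lost without any array but ε/ε replicate 2 or γ1/γ1 replicate 1 (up to 0.117). It was lost too under quantile normalization, median centring, the 6 arrays compared, the replicate block, the covariate for low Xist and the 7 arrays of high Xist (0.0623 to 0.0969). The median difference of the list was 0.08. In each of the other comparisons 0 of 26 passed by limma, with 1 higher and 1 lower at an unadjusted p under 0.05 in γ1/γ1 against wild-type and 3 higher and 1 lower between ε/ε and γ1/γ1.

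Class II genes, whose products B cells use to engage helper T cells, had 0 of 12 passing in each comparison by limma, with 1, 0 and 1 at an unadjusted p under 0.05, in ε/ε against wild-type, γ1/γ1 against wild-type and ε/ε against γ1/γ1. The smallest p belonged to Ifi30, a thiol reductase of the endosome, which read 9.11, 9.49 and 9.78 in ε/ε and 8.87, 7.17 and 8.63 in wild-type cells (difference 1.24, SE 0.39, adjusted p = 0.0867). H2-Oa, a chain of the DO inhibitor of peptide exchange, had a difference of 0.57 (SE 0.28, adjusted p = 0.236). The median difference of the 12 was 0.09.

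The MHC region of chromosome 17, taken from H2-K1 to H2-T23 in the RefSeq gene table, held 90 tested genes outside the 8 genes and the heavy chain list, some of them, such as Psmb8, Psmb9 and H2-Oa, on other lists above. Of these 4 rose and 1 fell between ε/ε and wild-type, 5.56% against 6.34% of all genes, with a median of 0.06. H2-Q5, a class I gene of the Q region, read 7.28, 6.80 and 6.70 in ε/ε, 6.13, 6.63 and 6.36 in γ1/γ1 and 5.73, 5.06 and 5.71 in wild-type cells. Its rise was 1.43 (SE 0.23, 2.70-fold, adjusted p = 0.00896), or 1.05 with the mean of its probe sets (adjusted p = 0.0889). H2-Q5 was not among the genes kept in the fit of protein-coding genes alone. Which of the near-identical class I copies its probe sets measured is uncertain. Tubb5, a β-tubulin, rose by 0.97 (SE 0.22, adjusted p = 0.0284) and G6bos fell by 1.26 (SE 0.24, adjusted p = 0.0157). The call of Tubb5 was lost by omitting any ε/ε array or wild-type replicate 2 or 3 (to 0.118), by the replicate block (0.0503) and on the 7 arrays of high Xist (0.0721), and that of G6bos by omitting wild-type replicate 1 or 2 (to 0.0670). Neu1, a sialidase, and Vars, a tRNA synthetase, also rose, by 0.71 and 0.82 (adjusted p = 0.0252 and 0.0414), and are named after their values were seen. On the 7 arrays of high Xist neither passed (0.0674 and 0.0643). Omitting ε/ε replicate 1 or 3 or any wild-type array ended both calls (to 0.102 and 0.156), and that of Vars was also lost without ε/ε replicate 2 or γ1/γ1 replicate 2, without a filter, in the 6 arrays compared and with the replicate block (0.0729).

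Between ε/ε and γ1/γ1, 2 of the 90 were higher and 1 was lower, 3.33% against 2.66% of all genes. Slc39a7, a zinc transporter of the endoplasmic reticulum, was higher by 1.10 (SE 0.16, adjusted p = 0.00879) and G6bos lower by 1.43 (SE 0.24, adjusted p = 0.0151), the latter lost when γ1/γ1 replicate 3 was left out (0.0535). Neu1 was the other gene higher in ε/ε, by 0.84 (SE 0.15, adjusted p = 0.0222), a call lost without ε/ε replicate 1 or γ1/γ1 replicate 1 or 2 (to 0.0732). None of the 3 passed in the 6 arrays compared (Slc39a7 0.0553, G6bos 0.0634, Neu1 0.0887) or on the 7 arrays of high Xist (1.05 and 0.0625, -1.14 and 0.101, 0.70 and 0.118). In γ1/γ1 cells 0 of the 90 passed by limma against wild-type, where 0.0411% of all genes did.

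**Figure D5:**
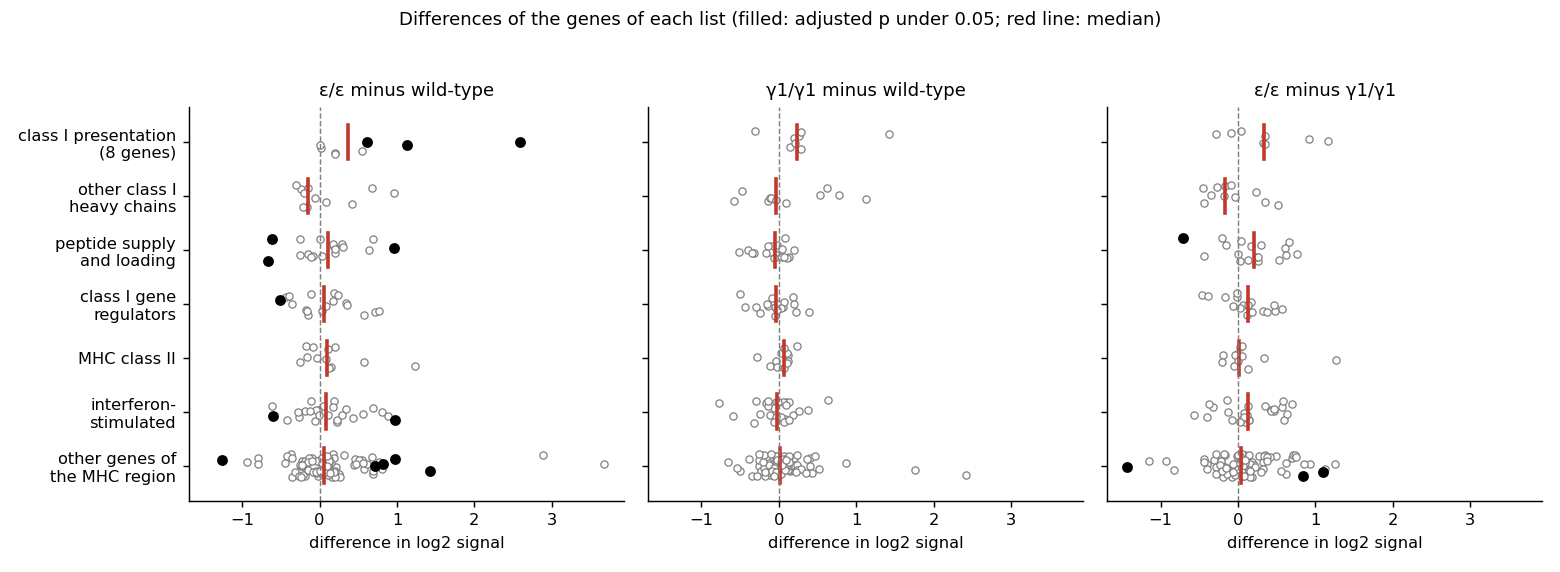
Difference in log2 signal of each tested gene (points) in 7 gene lists (rows) for the 3 comparisons, with the list's median as a red line; filled points pass at an adjusted p under 0.05. The 8 class I presentation genes have a median of 0.37 between ε/ε and wild-type, and the medians of the 6 other lists drawn lie between -0.14 and 0.11; the cell type marker lists are not drawn.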

How the data were processed

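The values are log2 signals per probe set, deposited by the authors for 41345 probe sets on each of 9 single-colour arrays. Per the labels' protocols, 54 to 360 ng of TRIzol-extracted total RNA was amplified and labelled with biotin. R 3.3.1 is named in the submitters' processing notes. How background, normalization and probe set summary were handled is not given in the sources used here. Precision is limited by the number of arrays.

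The platform annotation gave 1 symbol to 23521 probe sets and several to 1814. The brightest probe set stood for a gene, and a gene was tested if it lay above the array median on at least 3 arrays. All 9 arrays entered 1 model in limma 3.58.1 (R 4.3.3) with a mean per genotype and 6 residual degrees of freedom, and p-values were adjusted by Benjamini-Hochberg over 12170 genes. Scripts were tested on simulated data. Promoter windows were searched and aligned with biopython 1.88, and figures drawn with matplotlib 3.10.9. The alternatives were other scalings, filters, probe set and variance rules, the arrays of 1 comparison alone, a replicate block, omission of each array in turn, a covariate for low Xist, protein-coding genes alone and a threshold of 0.1. Restricting the fit to the 7 arrays of high Xist was an alternative chosen after seeing the data. The text names every listed class I gene, from each other list up to 4 genes that passed with the largest differences or else the 2 with the smallest p, and the 3 genes most correlated with each class I gene that passed. The genes and lists were chosen with earlier results of these data known.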

Additional observations from a re-analysis of the deposited data

How the results depend on the processing

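Between ε/ε and wild-type the same 3 class I genes passed under every alternative fitted over genes but the omission of single arrays, under which the count ran from 0 to 3; over all probe sets that of H2-Q10 missed the threshold (adjusted p = 0.0540). In γ1/γ1 against wild-type it was 0 throughout. Between ε/ε and γ1/γ1 it was 0 with any array left out and 1, Tapbp, under quantile normalization, with the filter at percentile 75 and at a threshold of 0.1. The F test's 3 became 2 with arrays centred on their medians (H2-K1 lost, 0.0538), 2 with the mean of the probe sets (H2-Q10 lost, 0.0801), 2 with the covariate for low Xist (H2-Q10 lost, 0.0554), 1 without a filter, 1 with array weights, 1 with the replicate block, 0 on the 7 arrays of high Xist and 0 to 2 with single arrays left out. Arrays sharing a replicate number deviated together with an r of -0.09 to 0.16, other pairs with -0.07 to 0.08, and not every array correlated best with its own number, so the numbers were not taken as a pairing. The replicate block left the count for ε/ε against wild-type at 3, took the calls of all genes from 772 to 668, and ended the calls of Psme2, Sppl2a, Irf2, Samd9l, Tubb5 and Vars in that comparison and of Sppl2a between ε/ε and γ1/γ1.

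Small differences that missed the test changed sign with single arrays left out, which leaves fewer samples: between ε/ε and wild-type H2-T23 (-0.079 to 0.12), Tap1 (-0.021 to 0.41), Tap2 (-0.039 to 0.029) and Psmb8 (0.013 without wild-type replicate 1, and 0.055 under quantile normalization), Tapbp between γ1/γ1 and wild-type (-0.013 to 0.37), and Tap1 between ε/ε and γ1/γ1 (-0.25 to 0.12, and 0.061 on the 7 arrays). Counts of all genes passing ran from 186 to 1626 around 772 for ε/ε against wild-type, from 0 to 7 around 5 for γ1/γ1 and from 56 to 803 around 324 for ε/ε against γ1/γ1. Counts of the other lists between ε/ε and wild-type ran from 0 to 4 around 3 for peptide supply, 0 to 3 around 1 for regulators, 0 to 4 around 2 for interferon-stimulated genes, 1 to 15 around 5 for the MHC region, and 0 to 1 around 0 for the other heavy chains and for class II. Between ε/ε and γ1/γ1 they ran from 0 to 3 around 1 for peptide supply and 0 to 8 around 3 for the MHC region. Causes were not tested. Signals near the array medians, as for H2-Q10 in wild-type cells, limit what can be read from a difference.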
